A study of Mus musculus with 23 samples.

Results

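The genes of milk protein and lactation were followed in tumors of PyMT mice, in which the polyoma middle T oncogene gives rise to mammary carcinoma. The list held 10 of the 47643 genes in the deposited tables, a list of named genes that follows their known roles and sets no cut on measured values: the 5 casein genes Csn1s1, Csn1s2a, Csn1s2b, Csn2 and Csn3, the whey proteins Wap and Lalba, the mucin Glycam1, and Btn1a1 and Xdh, which encode proteins of the milk fat globule. All 10 had reads and all 10 passed the filter on low values in every comparison. Transcriptomes were taken from 23 dissociated tumors by sequencing of mRNA 3′ ends. In the neutralization experiment, PyMT WT mice had received IgG (n = 5) or antibodies against IL-38 (n = 6). In the γδ TCR experiment, PyMT WT mice had received IgG (WT + IgG, n = 4), and PyMT IL-38 KO mice had received IgG (KO + IgG, n = 4) or antibodies against the γδ TCR (KO + anti-γδTCR, n = 4). All groups were of PyMT mice, and each antibody or IgG was given once a week for 5 weeks. By the paper's methods, the control IgG was human in the neutralization experiment and Armenian hamster in the γδ TCR experiment. Treatment began at a set tumor size in the former and at a set age in the latter. The transgene acts in mammary epithelium, so tumor cells and any normal mammary tissue in a sample cannot be told apart in these libraries.

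Caseins are the main proteins of milk. Lalba, α-lactalbumin, is the regulatory subunit of lactose synthase, Wap is the major whey protein of rodents, Btn1a1 is a membrane protein of the milk fat globule, and Xdh, xanthine oxidoreductase, binds it and is needed for the release of fat droplets. In the mammary gland of pregnancy and lactation these genes are switched on in alveolar cells by prolactin, which acts through its receptor Prlr, the kinase Jak2 and the transcription factors Stat5a and Stat5b, together with Elf5 and glucocorticoids. Csn3 encodes κ-casein, which keeps casein micelles in suspension, and Glycam1 is a secreted mucin of milk that is also made by the high endothelial venules of lymph nodes.

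The casein genes lie in 1 cluster on chromosome 5, in the order Csn1s1, Csn2, Csn1s2a, Csn1s2b and, after several other genes, Csn3. Among these others, Prr27 reached at most 191 reads and Odam at most 9 in a library. The windows around transcription starts are shown because STAT5 acts on milk genes through a short palindrome, TTCNNNGAA, which reads alike on both strands. RefSeq (GRCm38.p6) gave a window of 250 bases before to 50 bases after the start for 6 of the 10 genes. Of all 32851 windows of this length, 8.298% held the motif, and 4 of the 6 milk gene windows did. The submitters' processing notes name another build, GRCm39, so the coordinates hold for the windows only. In the sequences below, written 5′ to 3′ along the strand of the gene, capitals mark TTCNNNGAA.
Csn2, chr5:87699376-87699675, minus strand: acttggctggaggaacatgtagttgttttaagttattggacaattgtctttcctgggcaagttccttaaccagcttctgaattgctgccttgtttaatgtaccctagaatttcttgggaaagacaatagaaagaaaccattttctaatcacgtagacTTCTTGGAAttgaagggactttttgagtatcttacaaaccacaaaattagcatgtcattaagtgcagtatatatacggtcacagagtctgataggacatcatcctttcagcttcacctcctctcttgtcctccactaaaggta
Csn1s1, chr5:87665958-87666257, plus strand: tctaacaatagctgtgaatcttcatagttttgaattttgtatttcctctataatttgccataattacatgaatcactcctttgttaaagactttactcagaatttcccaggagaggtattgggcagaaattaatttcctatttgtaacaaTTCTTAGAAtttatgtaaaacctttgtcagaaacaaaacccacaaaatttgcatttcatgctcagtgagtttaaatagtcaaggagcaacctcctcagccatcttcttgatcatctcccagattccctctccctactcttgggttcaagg
Csn1s2a, chr5:87774200-87774499, plus strand: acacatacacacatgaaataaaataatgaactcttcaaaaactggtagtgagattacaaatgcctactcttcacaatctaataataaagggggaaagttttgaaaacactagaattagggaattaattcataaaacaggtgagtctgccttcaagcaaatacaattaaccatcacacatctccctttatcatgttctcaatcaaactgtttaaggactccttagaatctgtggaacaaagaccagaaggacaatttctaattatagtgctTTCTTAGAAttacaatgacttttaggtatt
Glycam1, chr15:103565032-103565331, minus strand: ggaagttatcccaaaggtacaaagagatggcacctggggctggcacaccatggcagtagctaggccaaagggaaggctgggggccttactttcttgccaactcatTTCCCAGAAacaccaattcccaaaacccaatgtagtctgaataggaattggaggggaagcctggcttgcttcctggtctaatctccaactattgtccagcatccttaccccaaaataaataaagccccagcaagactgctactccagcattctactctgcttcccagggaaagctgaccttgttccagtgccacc
Wap, chr11:6638600-6638899, minus strand: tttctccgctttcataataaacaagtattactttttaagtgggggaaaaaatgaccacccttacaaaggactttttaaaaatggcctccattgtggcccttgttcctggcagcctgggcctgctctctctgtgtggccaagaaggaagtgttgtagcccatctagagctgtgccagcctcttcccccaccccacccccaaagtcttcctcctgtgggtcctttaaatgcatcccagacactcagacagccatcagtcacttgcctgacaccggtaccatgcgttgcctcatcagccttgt
In the Csn2 window the motif began 93 bases before the start, in Csn1s1 100 bases before it and in Glycam1 145 bases before it. In Csn1s2a it began at base 21 of the transcribed part. The windows of Wap and of Lalba, which is not printed, held no match. With one more base in the spacer, TTCNNNNGAA, Csn2 had a further match that began 140 bases before the start, and 6.953% of all windows held one. These matches are letters in a window, and binding was not measured.

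Between 6273049 and 15879164 reads were counted on genes per library. Levels are given as CPM, the reads of a gene scaled to the total of its library, where 1 CPM is 0.0001% of the reads, and since each transcript gives reads at its 3′ end only, CPM does not grow with transcript length. A library with 0 reads of a gene allows a level of up to 3 reads, which is 0.189 to 0.478 CPM, and intervals of this kind cover counting error only. The luminal markers Krt8 (56.8 to 328 CPM), Krt18 (141 to 553 CPM) and Epcam (219.6 to 1045 CPM) were present in all 23 libraries. Il1f10, the gene of IL-38, had 0 reads in all 23 libraries, so that its level cannot check the knockout labels. The 4 libraries of KO + anti-γδTCR and KO + IgG replicate 4 stood apart from the rest, as 1.34% to 2.03% of their reads fell on processed pseudogenes, while it was 0.103% to 0.202% for the 18 others, which were also deeper (10138353 to 15879164 reads, compared with 6273049 to 8794202). Differences of the members between KO + IgG and WT + IgG or KO + anti-γδTCR are therefore given with and without replicate 4.

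Milk gene transcripts took 0.177% to 1.98% of all reads. Nearly all of these came from Csn3, which made up 77.5% to 95.05% of the reads of the 10 genes. Csn3 lay between 1599 and 18066 CPM and ranked between 3rd and 44th of all genes by reads in a library, with a median rank of 6. Lalba followed with 57.6 to 1420 CPM. Xdh (57.8 to 201 CPM) and Btn1a1 (4.84 to 85.5 CPM) were also read in every library. Csn1s1 ranged from 6.22 to 1179 CPM, a 189.6-fold difference, and Wap from 4.09 to 236 CPM. Csn1s2a (0.0744 to 41.5 CPM), Csn2 (0 to 86.5 CPM), Glycam1 (0 to 15.1 CPM) and Csn1s2b (0.956 to 5.36 CPM) were the least abundant by reads. The highest Csn2 level was at least 399.6-fold higher than the limit of 3 reads in the library without a read.

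**Figure D1:**
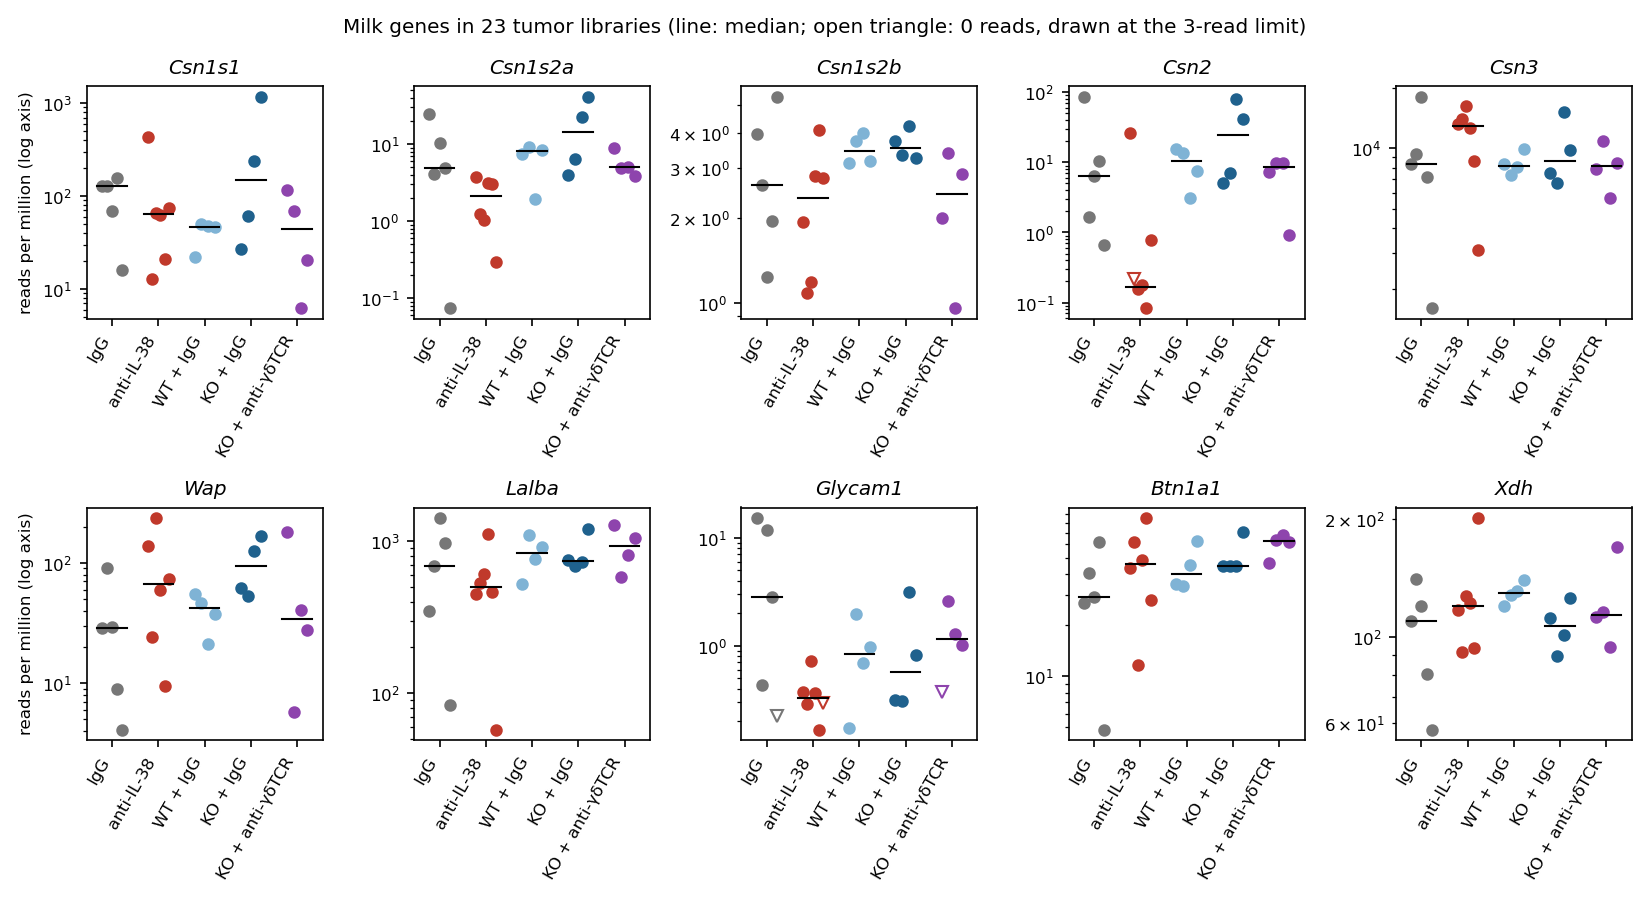
CPM of 10 milk genes (log axis, own scale in each panel) in 23 libraries, by group, with 1 point per tumor and a line at the group median. Open triangles are libraries with 0 reads, drawn at the limit of 3 reads. Csn2 lies below 1 CPM in 5 of 6 anti-IL-38 libraries, and also in IgG replicate 5 (0.670 CPM) and KO + anti-γδTCR replicate 4 (0.910 CPM). The ranges of groups next to each other in order of median overlap in all 10 panels, a count not made over all genes.

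For each gene the 5 groups were ordered by their median CPM. In all 40 pairs of neighbours in these orders, the ranges of the libraries overlapped, so that 0 pairs stood apart. Neighbours are the groups closest in median, and the same count was not made over all genes. The overlap is therefore not a trait shown to be particular to milk genes. KO + IgG had the highest median of Csn1s1 (148 CPM), Csn1s2a (14.3 CPM), Csn1s2b (3.52 CPM), Csn2 (24.2 CPM) and Wap (94.2 CPM). Anti-IL-38 had the lowest median of Csn1s2a (2.16 CPM), Csn1s2b (2.35 CPM), Csn2 (0.170 CPM), Lalba (498 CPM) and Glycam1 (0.325 CPM), but the highest of Csn3 (12860 CPM).

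For 9 of the 10 members the spread between tumors of 1 group was larger than the median of all genes. It was measured as the standard deviation of log2(normalized count + 1), pooled over the 4 groups of the table of 19 libraries. Over 16352 genes its median was 0.39. Csn2 had a pooled SD of 2.40, above that of 99.8% of these genes. Glycam1 (1.98), Csn1s2a (1.82), Csn1s1 (1.65) and Wap (1.41) were also among the 5% of genes with the largest spread, and Lalba (1.22) was among the top 10%. Csn3 (0.89), which sits among the most abundant transcripts, varied more than all 10 other genes of a mean level within 2-fold of its own, whose median was 0.34. Btn1a1 had 0.93. Csn1s2b (0.58) and Xdh (0.38) lay lower, with a spread above that of 68.0% and 48.8% of all genes. Spread differs with level, however. Among genes of a mean level within 2-fold of its own, Csn1s2b was above 43.6% and Xdh above 82.4%.

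**Figure D2:**
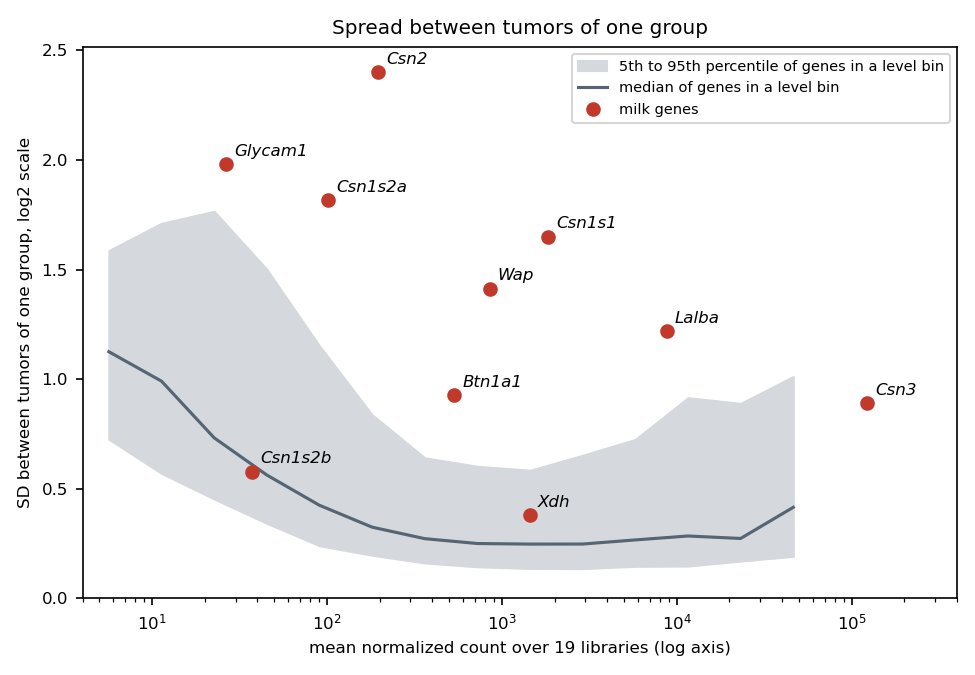
Standard deviation between tumors of 1 group (log2 scale, pooled over 4 groups of 19 libraries) against mean normalized count (log axis). The band spans the 5th to 95th percentile of all genes in bins of level and the line is their median. Csn2 stands highest at 2.40, while Csn1s2b and Xdh lie within the band. Csn3 (0.89) lies to the right of the band, and below the 95th percentile (1.01) of the 27 genes in the highest bin.

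The spread was wider in some groups than in others. In Csn3 it was 1.29 in IgG and 0.92 in anti-IL-38, but 0.16 in WT + IgG and 0.54 in KO + IgG. Lalba likewise had 1.60 and 1.48 in the neutralization experiment against 0.48 in WT + IgG and 0.39 in KO + IgG. Csn1s1 was instead widest in KO + IgG (2.41), with 1.33 in IgG, 1.76 in anti-IL-38 and 0.58 in WT + IgG. In KO + anti-γδTCR, which was normalized in the table of 8 libraries, the spread was 0.30 for Csn3, 0.51 for Lalba, 1.82 for Csn1s1 and 2.09 for Wap. Several members were low in the same tumors. IgG replicate 5 had 1599 CPM of Csn3, 84.3 CPM of Lalba and 4.84 CPM of Btn1a1, the lowest of its group in each. Anti-IL-38 replicate 6 had 3096 CPM of Csn3 and 57.6 CPM of Lalba, the lowest of its group in both, yet 201 CPM of Xdh, the highest of all 23 libraries. The summed level of 12 luminal epithelial genes was lowest in the same libraries within their groups, at 1848 CPM in IgG replicate 5 and 2861 CPM in anti-IL-38 replicate 6, against 2341 to 3840 CPM and 3258 to 4663 CPM in the others. Csn1s2b was instead the highest of its group in IgG replicate 5, at 5.36 CPM. The alveolar and luminal progenitor list was not low in these 2 libraries, at 10058 CPM (group range 8239 to 10767) and 11767 CPM (9417 to 11767). Neither were the other milk and secretory proteins, at 19910 CPM (13605 to 19910) and 25386 CPM (16398 to 27001). The part of these lists in the milk gene levels was not tested. In bulk tumors fewer cells of a type and less RNA per cell cannot be told apart.

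The share of the variance of log2 values that lay between the 4 groups was 46.5% for Csn2, and between 7.68% (Csn3) and 28.6% (Wap) for the other 9 genes. The median over all tested genes was 26.6%.

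The first comparison asked what neutralization of IL-38 changed in PyMT tumors. Among the 10 members, Csn2, β-casein, had the largest difference with limma. Its reads in the 5 IgG libraries were 1114, 23, 92, 141 and 9 (86.5, 1.66, 6.28, 10.5 and 0.670 CPM). In the 6 anti-IL-38 libraries they were 352, 0, 2, 2, 1 and 8 (lowest 0, median 0.170 and highest 26.2 CPM). Of the 6 treated tumors, 4 lay below every IgG tumor, while replicate 1 lay above all but 1 of them. On the scale of log2(normalized count + 1), the difference of Csn2 with anti-IL-38 was −3.51 ± 1.41 (SE), which did not pass the threshold (limma, adjusted p = 0.432). An exact two-sided permutation test gave p = 0.0693, where the smallest p of this design is 0.00216, and none of the 40 such tests was adjusted. With 1 library left out the difference ran from −4.64 ± 1.08 without anti-IL-38 replicate 1 (limma, adjusted p = 0.578) to −2.56 ± 1.38 without IgG replicate 1, and with DESeq2 it was −2.16.

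Glycam1 also had low counts in treated tumors. In IgG its levels were 15.1, 0.433, 11.8, 2.84 and 0 CPM, and in anti-IL-38 the lowest was 0, the median 0.325 and the highest 0.713 CPM, which is 9 reads. The groups overlapped, since 2 of the 5 IgG tumors were as low as treated ones, and the difference of −2.47 ± 1.18 on the log2 scale did not pass (limma, adjusted p = 0.481). It was −1.72 ± 1.18 without IgG replicate 1, −3.60 ± 0.91 without IgG replicate 5, and −4.13 with DESeq2 (adjusted p = 0.101), larger there than that of Csn2. The list of high endothelial venule and lymph node genes, a second source of Glycam1, summed to 5.96 to 9.53 CPM in IgG and to 3.85 to 6.89 CPM in anti-IL-38. Of its 12 genes, Ccl21a was at 0 in all 23 libraries, Chst4 and Cd79a were at 0 in 22, and Madcam1 was at 0 in 11.

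Wap had a difference of the opposite sign. The IgG tumors had 28.7, 90.6, 29.3, 8.90 and 4.09 CPM of Wap. The anti-IL-38 tumors had a lowest value of 9.50, a median of 66.3 and a highest of 236 CPM, so that 2 of 6 lay above all IgG tumors. The difference was 1.58 ± 0.85 on the log2 scale (limma, adjusted p = 0.517). Csn3 was at 8325, 9352, 18066, 7221 and 1599 CPM in IgG and at a lowest of 3096, a median of 12860 and a highest of 16271 CPM in anti-IL-38, a difference of 0.57 ± 0.56. Of the remaining members, Btn1a1 (0.70 ± 0.58) and Xdh (0.37 ± 0.24) had positive differences, and Csn1s2a (−1.15 ± 1.04), Csn1s1 (−0.40 ± 0.78), Csn1s2b (−0.30 ± 0.42) and Lalba (−0.22 ± 0.76) had negative ones. The values for Csn1s1 and Lalba changed sign under other settings, and that of Csn1s2a was −2.31 ± 0.66 without IgG replicate 5 and −0.49 ± 1.03 without IgG replicate 1.

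In this comparison 0 of 10 members passed the adjusted threshold of 0.05, as did 0% of the 16002 genes tested with limma. At an unadjusted p under 0.05, 1 of 10 members (Csn2) stood beside 10.5% of all genes. EdgeR and DESeq2 called 0 members as well, while DESeq2 called 75 genes over all and gave no adjusted p for Csn2. The median difference of the members was −0.26, beside 0.00 for all genes, and their median absolute difference was 0.64 beside 0.22.

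**Figure D3:**
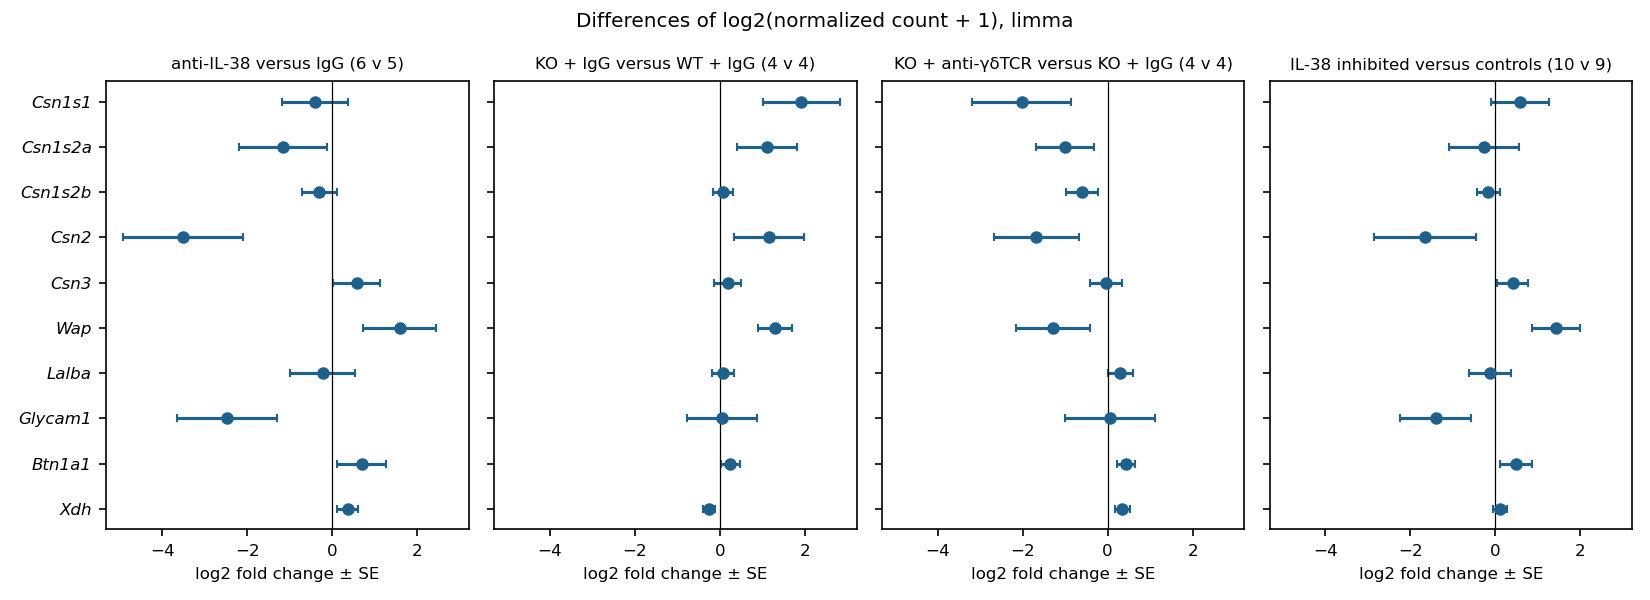
Difference of log2(normalized count + 1) between groups for 10 milk genes in 4 comparisons, with points for the limma estimate and bars for 1 standard error. Csn2 is at −3.51 with anti-IL-38 and at 1.17 with the knockout, and Wap is positive in both, at 1.58 and 1.30.

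The comparison of genotypes asked the same of IL-38 KO mice. Here Wap came nearest to the threshold. WT + IgG tumors had 54.7, 46.6, 21.2 and 37.8 CPM of Wap and KO + IgG tumors had 62.1, 52.6, 126 and 168 CPM, so that 3 of 4 KO tumors lay above all WT tumors. Normalized counts were 1226 ± 675 (SD, n = 4) in KO + IgG and 469 ± 167 (SD, n = 4) in WT + IgG. The difference was 1.30 ± 0.39 on the log2 scale (limma, adjusted p = 0.272). The exact two-sided permutation test gave p = 0.0571, with 0.0286 as the smallest p that 4 against 4 allows. DESeq2 called Wap with a log2 fold change of 1.39 (adjusted p = 0.0201) among 2.26% of the genes it tested, whereas the adjusted p was 0.278 with edgeR. Without KO + IgG replicate 4 the limma difference was 0.99 ± 0.34 (adjusted p = 0.231).

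Of the casein cluster, 3 genes had their highest values of this comparison in the same KO tumors. Csn1s1, αs1-casein, had 22.2, 49.9, 47.1 and 46.0 CPM in WT + IgG and 27.1, 60.7, 236 and 1179 CPM in KO + IgG. The neighbouring Csn2 had 15.7, 13.5, 3.07 and 7.55 CPM in WT + IgG and 4.99, 7.10, 80.6 and 41.3 CPM in KO + IgG. Csn1s2a had 7.57, 9.13, 1.92 and 8.52 CPM in WT + IgG and 3.96, 6.40, 22.2 and 41.5 CPM in KO + IgG. For all 3 genes the values of KO + IgG replicates 3 and 4 were above every WT tumor, and those of replicates 1 and 2 were among or near the WT values. The differences were 1.92 ± 0.91 for Csn1s1, 1.17 ± 0.82 for Csn2 and 1.11 ± 0.71 for Csn1s2a (limma, adjusted p = 0.421, 0.578 and 0.542). Without KO + IgG replicate 4 they were 0.91 ± 0.57 for Csn1s1, 0.77 ± 0.83 for Csn2 and 0.52 ± 0.62 for Csn1s2a, and without KO + IgG replicate 1 they were 2.73 ± 0.79, 1.80 ± 0.78 and 1.65 ± 0.67. For Csn2 the difference was 0.46 ± 0.73 without KO + IgG replicate 3. Csn1s2b, next to Csn1s2a, was at 3.13 to 3.99 CPM in WT and at 3.25 to 4.22 CPM in KO, a difference of 0.07 ± 0.25 (0.11 ± 0.28 without replicate 4).

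Lalba values of both genotypes lay close together. The gene had 525, 1098, 761 and 910 CPM in WT + IgG and 748, 688, 729 and 1201 CPM in KO + IgG, a difference of 0.07 ± 0.26 that was −0.12 ± 0.23 without KO + IgG replicate 4. Csn3 had 8349, 7314, 8030 and 9876 CPM in WT + IgG and 7504, 6682, 15206 and 9774 CPM in KO + IgG (0.18 ± 0.31, or 0.15 ± 0.31 without replicate 4). Btn1a1 differed by 0.25 ± 0.23 and Glycam1 by 0.04 ± 0.82, which were 0.07 ± 0.20 and −0.01 ± 0.88 without KO + IgG replicate 4. Xdh, the only member with a negative difference, had 120, 128, 131 and 139.8 CPM in WT + IgG and 112, 89.4, 101 and 126 CPM in KO + IgG, which came to −0.26 ± 0.14 (limma, adjusted p = 0.471) and to −0.35 ± 0.13 without KO + IgG replicate 4.

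Again 0 of 10 members passed the adjusted threshold with limma. Over all genes, 0.00604% of 16563 passed, which was the single gene Gm10093 (difference 4.03 ± 0.45). At an unadjusted p under 0.05, 1 of 10 members (Wap) stood beside 12.1% of all genes. The median difference of the members was 0.22 beside 0.01 for all genes.

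Blockade of the γδ TCR in IL-38 KO tumors was the third comparison, made within a table of 8 libraries that was normalized on its own and shares the 4 KO + IgG tumors with the comparison of genotypes. All 4 KO + anti-γδTCR libraries had the high share of processed pseudogene reads, as had only replicate 4 of the 4 KO + IgG libraries, so that this property and the treatment cannot be told apart. Csn1s1 was at 115, 68.6, 6.22 and 20.7 CPM after blockade, and the difference from KO + IgG was −2.02 ± 1.17 (limma, adjusted p = 0.354). Csn2 was at 7.24, 9.69, 9.72 and 0.910 CPM (−1.68 ± 1.00, adjusted p = 0.367) and Csn1s2a at 8.99, 4.91, 5.10 and 3.87 CPM (−1.004 ± 0.67, adjusted p = 0.432). After blockade the highest Csn1s2a and Csn2 levels thus lay below those of KO + IgG replicates 3 and 4, and 3 of the 4 Csn2 levels lay between those of the 4 KO + IgG tumors. Without KO + IgG replicate 4 the differences were −0.999 ± 0.92 for Csn1s1, −1.28 ± 1.02 for Csn2 and −0.41 ± 0.54 for Csn1s2a. Without KO + IgG replicate 1 they were −2.85 ± 1.13, −2.32 ± 1.00 and −1.56 ± 0.60, and without KO + anti-γδTCR replicate 4 the difference of Csn2 was −0.87 ± 0.89.

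Wap ranged from 5.72 to 180.4 CPM after blockade, the values being 180.4, 5.72, 40.65 and 27.5 CPM, and differed by −1.29 ± 0.87 (limma, adjusted p = 0.434). Single libraries moved this value, to −2.12 ± 0.69 without KO + anti-γδTCR replicate 1, to −0.44 ± 0.65 without its replicate 2 and to −0.98 ± 0.89 without KO + IgG replicate 4. Lalba was at 1281, 584, 812 and 1055 CPM (0.30 ± 0.29), and Csn3 at 7896, 10817, 5626 and 8485 CPM (−0.04 ± 0.37). Csn1s2b differed by −0.60 ± 0.37, Xdh by 0.35 ± 0.18 and Glycam1 by 0.06 ± 1.05. With KO + IgG replicate 4 left out, the differences were 0.51 ± 0.25 for Lalba, 0.0040 ± 0.37 for Csn3, −0.62 ± 0.41 for Csn1s2b, 0.45 ± 0.17 for Xdh and 0.11 ± 1.11 for Glycam1. Btn1a1 was at 46.7, 63.8, 68.1 and 61.5 CPM after blockade and at 44.5, 44.4, 44.6 and 70.5 CPM in KO + IgG, a difference of 0.43 ± 0.21 (limma, adjusted p = 0.271). Without KO + IgG replicate 4, the highest of the 8 by CPM, the difference was 0.61 ± 0.17 and passed the threshold (limma, adjusted p = 0.0334), but 14.3% of all 16480 genes also passed in that fit.

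With all 8 libraries, 0 of 10 members and 0% of 16481 genes passed the adjusted threshold with limma. At an unadjusted p under 0.05 there were 0 of 10 members beside 21.7% of all genes. EdgeR and DESeq2 called 0 members too, while DESeq2 called 1036 genes over all. The median difference of the members was −0.32 beside 0.02 for all genes.

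When the 10 tumors with IL-38 neutralized or deleted were set against the 9 IgG controls, which are the same libraries as in the first and second comparison, Wap differed by 1.43 ± 0.56 (limma, adjusted p = 0.390). These controls pool both experiments, and so both sources of IgG and both starts of treatment. Of the 10 inhibited tumors, 4 lay above all 9 controls. This was the one exact permutation test of the 40 that fell under 0.05, with an unadjusted two-sided p = 0.0377. Its regroupings exchange libraries between the experiments, and with exchange only within each experiment, a test added after the data were seen, the exact permutation p was 0.0383. Neither exact test is given without KO + IgG replicate 4. Over the other settings, which include each library left out, the difference of Wap was 1.11 to 1.75. Csn2 differed by −1.66 ± 1.20 on the log2 scale, and by −2.13 ± 1.18 without KO + IgG replicate 4. Its mean normalized counts with all libraries, however, were 196 ± 320.2 (SD, n = 10) and 195 ± 327 (SD, n = 9), and with edgeR and DESeq2 the difference was 0.01 and 0.00. Here 0 of 10 members and 0% of 16352 genes passed the adjusted threshold. At an unadjusted p under 0.05 it was 1 of 10 members (Wap) beside 10.5% of genes.

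Whether antibody and knockout differed in their effect was tested with an interaction term over the 19 libraries. Csn2 had the largest difference between the effects among the members, −4.68 ± 1.95 on the log2 scale, being negative with the antibody and positive with the knockout. This did not pass (limma, adjusted p = 0.595), and over the other settings, which include each library left out, it was −5.81 to −3.72. Of all genes, 0.00612% passed, which was again Gm10093 alone, and 0 of 10 members did. At an unadjusted p under 0.05, 1 of 10 members (Csn2) stood beside 7.67% of genes. The antibody and knockout experiments had separate control groups.

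Next it was asked which milk genes moved with Csn2 from tumor to tumor. Across 19 libraries, Csn1s2a followed Csn2 most closely (Pearson r = 0.71, permutation p = 0.0004, adjusted over 9 relations p = 0.0036; Spearman rho = 0.82, permutation p = 4e-05, adjusted p = 0.00036). Csn1s1, the direct neighbour of Csn2, had r = 0.60 (permutation p = 0.00603, adjusted p = 0.0271) and rho = 0.54 (permutation p = 0.0184, adjusted p = 0.0828). Glycam1 had r = 0.55 (permutation p = 0.0148, adjusted p = 0.0444) and rho = 0.50 (permutation p = 0.0329, adjusted p = 0.0987). With the mean of each group subtracted, r was 0.60 for Csn1s2a (adjusted permutation p = 0.0368), 0.74 for Csn1s1 (adjusted permutation p = 0.00387) and 0.50 for Glycam1 (adjusted permutation p = 0.0921). The libraries farthest from the Csn2 median were anti-IL-38 replicates 2 and 5, with 0 and 1 read. Without these 2, r was 0.77 for Csn1s2a (adjusted permutation p = 0.00225) 0.54 for Glycam1 (adjusted permutation p = 0.119) and 0.47 for Csn1s1 (adjusted permutation p = 0.177), so that the relation of Csn1s1 was weaker without those samples, while r of Glycam1 changed little and missed the threshold over 17 libraries.

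The other members did not track Csn2 at the adjusted threshold. Pearson r was 0.27 for Csn1s2b, 0.23 for Wap, 0.22 for Lalba, 0.09 for Btn1a1, 0.04 for Csn3 and −0.05 for Xdh, with adjusted permutation p-values of 0.573 to 0.863. Spearman rho ran from −0.09 (Xdh) to 0.22 (Wap), with adjusted permutation p-values of 0.684 to 0.938. Csn3, at the far end of the casein cluster, had 13935, 16271, 12554 and 8588 CPM in the 4 anti-IL-38 tumors with at most 2 Csn2 reads, and 3096 CPM in the tumor with 8.

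**Figure D4:**
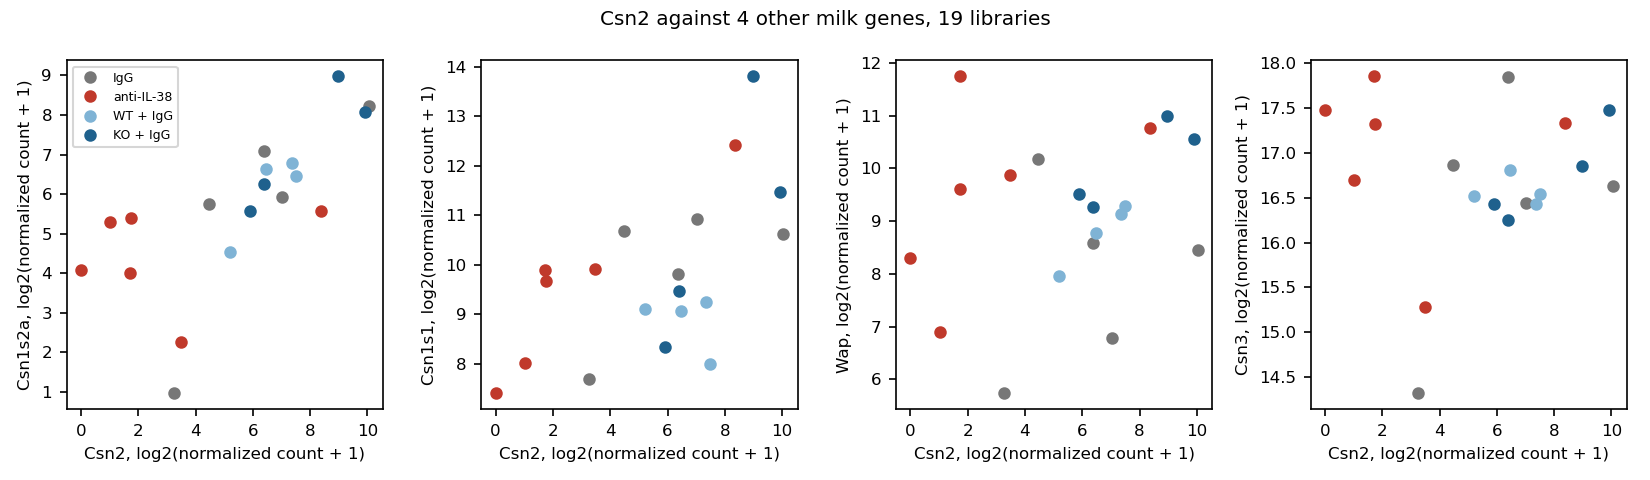
Csn2 against Csn1s2a, Csn1s1, Wap and Csn3 in 19 libraries, both axes as log2(normalized count + 1), with 1 point per tumor coloured by group. Csn1s2a (r = 0.71) and Csn1s1 (r = 0.60) rise with Csn2, whereas Csn3 (r = 0.04) does not.

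A milk protein index was taken as the mean of the standardized log2 values of 7 milk proteins (the caseins, Wap and Lalba). It was highest in KO + IgG replicates 4 (1.14) and 3 (0.97) and lowest in IgG replicate 5 (−1.44). Csn1s2a had the highest correlation with it of the members (r = 0.90 over 19 libraries, itself a part of the index) and Csn1s2b the lowest (r = −0.01). The 10 other genes most like the index, given as a description with no test, were Cd8a (r = 0.82), March7, Kcnj16, Gk5, Zfp518a, Zfand6, 1810026B05Rik, Gpa33, Bspry and Wdr72 (r = 0.78). Cd8a encodes a chain of the CD8 co-receptor of T cells and had at most 54 reads in a library. Kcnj16 encodes a potassium channel and ranged from 0 to 15.7 CPM.

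Transcripts of genes of the upstream pathway were present in all tumors, and the activity of the pathway was not measured. Prlr, the prolactin receptor, had 165 to 840.3 CPM, Stat5a 17.1 to 46.6 CPM, Stat5b 23.1 to 52.8 CPM, Jak2 13.4 to 44.0 CPM and Elf5, the transcription factor of alveolar differentiation, 28.1 to 144 CPM. In IgG and anti-IL-38 tumors Elf5 had medians of 67.9 and 76.3 CPM, and in WT + IgG, KO + IgG and KO + anti-γδTCR of 115, 121 and 114 CPM. These levels come from separate experiments and were not compared by a test.

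Of 19 genes of lactogenic signalling, 18 were tested and 0 passed with limma in any comparison with all libraries. The counts for this and all lists below are from limma alone. DESeq2 called 75 genes over all with anti-IL-38, 305 with the knockout and 1036 after blockade, and its calls within the lists are not given. With anti-IL-38, 14 had positive and 4 negative differences (median 0.34), those with the smallest p being Wnt4, a progesterone target (2.30 ± 0.57), and the neuregulin receptor Erbb4 (1.30 ± 0.39). With the knockout 7 were positive and 11 negative (median −0.14), led by the progesterone receptor Pgr (−1.45 ± 0.49) and the estrogen receptor Esr1 (−0.58 ± 0.20). After γδ TCR blockade 14 were positive and 4 negative (median 0.29), led by Prlr (0.74 ± 0.19; limma, adjusted p = 0.0662) and the glucocorticoid receptor Nr3c1 (0.91 ± 0.25).

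Of 15 other milk and secretory proteins, 13 were tested, and 0 passed in each comparison. With anti-IL-38, 10 were positive and 3 negative (median 0.73), led by the folate receptor Folr1 (1.36 ± 0.42) and Pigr, which carries immunoglobulin A into milk (1.00 ± 0.37). With the knockout 11 were positive and 2 negative (median 0.14), led by Muc1 (0.40 ± 0.22) and transferrin Trf (0.44 ± 0.25). After blockade 6 were positive and 7 negative (median −0.05), led by Mfge8, a protein of the milk fat globule (−1.14 ± 0.36), and Lao1 (−0.98 ± 0.45).

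In the list of 18 genes of milk fat synthesis, 0 of the 17 or 18 genes tested passed. With anti-IL-38, 9 were positive and 9 negative (median −0.04), led by the droplet coat protein Plin2 (−0.39 ± 0.14) and the fatty acid carrier Cd36 (−0.43 ± 0.15). With the knockout 9 were positive and 8 negative (median 0.02), led by the desaturase Scd2 (0.88 ± 0.25) and Srebf1, a regulator of lipid synthesis (1.11 ± 0.33). After blockade 2 were positive and 15 negative (median −0.30), led by lipoprotein lipase Lpl (−3.01 ± 0.67; limma, adjusted p = 0.0657) and Plin2 (−0.61 ± 0.16).

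For lactose synthesis and ion transport all 12 genes were tested and 0 passed. The counts of positive and negative differences were 6 and 6 with anti-IL-38 (median 0.01), 6 and 6 with the knockout (median −0.01) and 8 and 4 after blockade (median 0.09). Slc12a2, a sodium, potassium and chloride cotransporter, differed by 1.10 ± 0.30 with anti-IL-38 and by 0.80 ± 0.25 after blockade. Atp2b2, a calcium pump of milk secretion, differed by −1.75 ± 0.80 and 1.87 ± 0.60. With the knockout the leading genes were Slc35a2, the UDP-galactose transporter (0.55 ± 0.25), and the water channel Aqp5 (0.29 ± 0.15).

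All 12 genes of involution, the regression of the gland after weaning, were tested and 0 passed. With anti-IL-38, 8 were positive and 4 negative (median 0.48), led by Stat3 (0.62 ± 0.20) and its target Socs3 (0.74 ± 0.28). With the knockout 7 were positive and 5 negative (median 0.08), led by the cytokine Lif (1.36 ± 0.47) and Tgfb3 (0.23 ± 0.12). After blockade 6 were positive and 6 negative (median 0.04), led by Lif (−1.96 ± 0.53) and the protease Ctsb (−1.24 ± 0.38). In all of these lists the median over all tested genes was 0.00, 0.01 and 0.02 in the 3 comparisons.

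With all libraries, 0 markers of cell types passed the threshold with limma in these 3 comparisons, and their counts are given in the same order (anti-IL-38, knockout, blockade). Of 12 luminal epithelial genes, 12 had positive differences with anti-IL-38 (median 0.66), 8 with the knockout (0.31) and 9 after blockade (0.17), and their summed levels were 1848 to 3840 CPM in IgG, 2861 to 4663 in anti-IL-38, 2613 to 3691 in WT + IgG, 3523 to 3924 in KO + IgG and 3400 to 4144 in KO + anti-γδTCR. Of 10 alveolar and luminal progenitor genes, 8, 5 and 8 were positive (medians 0.33, −0.14 and 0.32). Of 10 basal and myoepithelial genes, 8, 1 and 10 were positive (medians 0.62, −0.58 and 0.62), with summed levels of 151 to 600.2 CPM in IgG and 128 to 2769 CPM in anti-IL-38. Of 10 adipocyte genes, 5, 1 and 4 were positive (medians 0.04, −1.05 and −0.04), and their sum was 353 to 476 CPM in WT + IgG and 77.7 to 318 CPM in KO + IgG. Of 8 macrophage genes, 3, 0 and 2 were positive (medians −0.19, −0.45 and −0.72), and their sum was 2274 to 3144 CPM in IgG, 1935 to 2686 in anti-IL-38, 1935 to 2521 in WT + IgG, 856 to 2099 in KO + IgG and 659 to 1069 in KO + anti-γδTCR. Of 8 T cell genes it was 7, 1 and 7 (medians 0.77, −0.48 and 0.40), of 8 fibroblast genes 8, 5 and 6 (medians 0.55, 0.10 and 0.20), of 8 endothelial genes 8, 6 and 5 (medians 0.17, 0.30 and 0.09) and of 8 skeletal muscle genes 7, 8 and 8 (medians 0.21, 1.62 and 1.20). Of the 4 high endothelial venule and lymph node genes tested, 2 were positive in each comparison. Over all 23 libraries the summed levels were 4546 to 11767 CPM for the alveolar and luminal progenitor list, 8.68 to 30.1 for T cells, 1199 to 9471 for fibroblasts, 93.8 to 216 for endothelium and 13.5 to 839.6 for skeletal muscle. The part of these cell types in the milk gene values was not tested.

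The knockout comparison without KO + IgG replicate 4 again had 0 genes called by limma in all of these lists. The positive counts there differed by at most 2 from those with all libraries, and the median of skeletal muscle was 2.64 and that of adipocyte genes −1.35. After blockade, where 14.3% of all genes passed in that fit, 3 of 18 lactogenic signalling genes passed with positive differences (Jak2, Nr3c1 and Prlr). With negative differences there passed 4 of 17 genes of milk fat synthesis (Cd36, Lpl, Plin2 and Srebf1), 3 of 12 of involution (Ctsb, Ctsl and Lif), 4 of 8 of macrophages (Adgre1, C1qb, Cd68 and Csf1r) and 1 of 13 other milk and secretory proteins (Mfge8, which is also in the alveolar list). Single genes with positive differences were Atp2b2, Krt18, Hey1 and the adipocyte gene Pparg.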

How the data were processed

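Libraries were made from RNA of dissociated PyMT tumors with a 3′ mRNA kit and processed by the authors with the QuantSeq pipeline of BlueBee Genomics; per the labels, the submitters' processing notes name STAR, HTSeq, DESeq2 and GRCm39, without versions. What the authors deposited are normalized counts (a signal scale), namely read counts after division by a size factor for each library, made separately for a table of 19 libraries and a table of 8. The 4 KO + IgG libraries stand in both with identical reads. Whole reads came out for 100% of values within 0.0001% (in WT + IgG replicate 1 the step is near 1 read, so rounding cannot be told apart), and gave CPM, totals (6273049 to 15879164) and the tests on counts. Of 47643 gene identifiers 47224 had a symbol in GENCODE M21, used for names and gene types only.

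Groups come from the sample titles. The limma 3.58.1 fit (R 4.3.3, eBayes with trend, two-sided) took log2 of normalized counts with a pseudocount of 1, for genes whose average over its libraries reached 5, and was adjusted by Benjamini-Hochberg over all genes at 0.05. Fold changes on this scale understate changes of low genes. Single members were also tested with exact permutations, and relations with 100000 permutations. Alternatives were pseudocounts of 0.5 and 5, no filter or a mean of at least 20, TMM and CPM scaling, edgeR 4.0.16, DESeq2 1.42.0, robust eBayes, a replicate block, experiment as a term, and each library left out. The fits were tested on simulated data. The members, lists and tests were chosen with earlier results of these data known. By rule, the text names all 10 members, the 2 genes with the smallest p in a lactation list where none was called, and the 10 genes most like the milk protein index; for the cell type lists, counts, medians and ranges of summed levels are given, and the genes called without KO + IgG replicate 4 were named after their values were seen. Titles give replicate numbers but do not say that samples came from separate mice, so p-values measure the spread between these samples. The smallest chi-square per degree of freedom between 2 libraries was 16.2, so that no pair of libraries agreed within sampling noise.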

Additional observations from a re-analysis of the deposited data

Results flagged for a closer look

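In 50 combinations of member and group, the highest or lowest log2(normalized count + 1) was compared with its nearest neighbour by Dixon's test, and 6 stood out, where chance alone gives about 1 in 20. Csn1s1 in WT + IgG replicate 1 was low at 22.2 CPM, against 46.0 to 49.9 CPM in the other 3 tumors. Csn1s2a in WT + IgG replicate 3 was low at 1.92 CPM, against 7.57 to 9.13 CPM. Csn2 in KO + anti-γδTCR replicate 4 was low at 0.910 CPM, against 7.24 to 9.72 CPM. Lalba in anti-IL-38 replicate 6 was low at 57.6 CPM, against 451 to 1109 CPM. In KO + IgG replicate 4, Lalba was high at 1201 CPM, against 688 to 748 CPM, and Btn1a1 was high at 70.5 CPM, against 44.4 to 44.6 CPM. That library also had 1.497% of its reads on processed pseudogenes, and the part of this in its milk gene levels was not tested. For no member did the effects of antibody and knockout differ past the threshold.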

How the results depend on the processing

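Over 868 refits of the 40 member differences, 833 kept their direction and 2 passed the threshold, Wap with DESeq2 in the comparison of genotypes and Btn1a1 after blockade without KO + IgG replicate 4, so that 1 member instead of 0 was called in each. The 35 reversals were of differences that did not pass. With anti-IL-38, Csn1s1 was at 0.19 with edgeR and 0.20 with DESeq2 (−0.97 to 0.031 with 1 library left out), and Lalba at 0.34 with the replicate block (−0.85 to 0.34). Replicate 6 exists in anti-IL-38 only, so with the block this library carries no weight in the difference. The block values given here and for the pooled comparison thus equal those without anti-IL-38 replicate 6. With the knockout, leaving out 1 library gave −0.0049 to 0.13 for Csn1s2b, −0.059 to 0.35 for Csn3, −0.14 to 0.24 for Lalba and −0.62 to 0.50 for Glycam1. After blockade it gave −0.21 to 0.20 for Csn3 and −0.50 to 1.07 for Glycam1, which was −0.10 with a pseudocount of 0.5 and −0.067 with CPM scaling. With antibody and knockout pooled, Csn1s2a was at 0.12 with edgeR, 0.13 with DESeq2 and 0.093 with the replicate block (−0.88 to 0.093 with 1 library left out), Csn2 at 0.0092 with edgeR and 0.00045 with DESeq2, Lalba at 0.22 with the block (−0.48 to 0.22) and Xdh at −0.0049 to 0.15 with 1 library left out.

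Counts over all genes moved most. For anti-IL-38, limma called 0 genes, DESeq2 75, the replicate block 1 and leaving out 1 library 0 to 6 (6 without IgG replicate 3). For the knockout limma called 1, DESeq2 305, edgeR and the replicate block 0 and leaving out 1 library 0 to 7. After blockade limma called 0 and DESeq2 1036, and leaving out 1 library gave 0 to 2357 genes and 0 to 1 members, the highest without KO + IgG replicate 4. For the pooled comparison limma called 0, edgeR 1, DESeq2 70, experiment as a term 1 and leaving out 1 library 0 to 23 (23 without IgG replicate 3). Equal replicate numbers did not pair the libraries: the correlation of their deviations from the group means was −0.17 to 0.07 over 13 pairs, and the replicate block called 0 members in every comparison.

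In the relations to Csn2, Csn1s1 had r = 0.47 without the 2 farthest libraries. Glycam1 missed the adjusted threshold with a pseudocount of 0.5 (r = 0.53), with group means subtracted (r = 0.50) and without the 2 farthest libraries (r = 0.54). Csn1s2b turned to −0.038 with group means subtracted, and Xdh to 0.076 with CPM scaling and 0.25 with group means subtracted. Of 50 group means of CPM, 14 moved by over 1.5 times when 1 library was left out, the most for Csn2 in anti-IL-38 (from 4.57 to 0.242 CPM without replicate 1) and in IgG (from 21.1 to 4.79 without replicate 1) and for Csn1s1 in KO + IgG (from 376 to 108 without replicate 4). Depth limits Csn2 and Glycam1, for which several libraries had under 10 reads.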
